A study of Mus musculus with 8 samples.

Results

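The Prp19 complex is a group of proteins that joins the spliceosome as it becomes active and stays with it through both steps of splicing. Its genes examined here were Bcas2, Prpf19, Cdc5l, Plrg1, Ctnnbl1, Crnkl1 and Xab2. These 7 genes were found by their symbols in the deposited table and had 16 of its 45101 probe sets, a probe set being the group of short probes on the array that reports 1 transcript. Bcas2 was chosen by its difference between Ctcfl mutant and wildtype testis on these same arrays, where 1 of its probe sets differed by at least 0.5 on the log2 scale without overlap between the groups. The other 6 genes were chosen by their place in the complex. The values of Bcas2 in this contrast are therefore a description and were given no test.

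Whole testes were taken from male mice on postnatal day 23, and the RNA of each sample was hybridised to an Affymetrix Mouse430_2 array. The wildtype group had 5 arrays, replicates 1, 2, 4, 6 and 7 in the labels, and the Ctcfl mutant group had 3, replicates 3, 5 and 8. CTCFL, or BORIS, is a testis-specific relative of the DNA-binding protein CTCF. The mutants carried, on both copies, an allele from which Cre had cut a run of exons of Ctcfl, from the first on in the study's numbering, and which kept a GFP tag. The line was kept on a C57/Bl6 background. The study's text calls the controls heterozygous littermates, which would carry a copy of the same deletion, whereas the labels call them wildtype, and the word in the labels is used here. Neither group was sorted for a cell type, so fewer cells of a kind and less RNA per cell cannot be told apart. The labels do not say whether each array came from a separate animal, so p-values measure the spread between these samples only. Ctcfl itself was not analysed here, and the genotype labels had no check from it.

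Values are log2 levels, so a difference of 1 is a doubling. Differences are taken between arrays on the same probe set. Comparisons of level between probe sets describe only how bright each is. Arrays of wildtype replicate 7 and mutant replicate 8 stood apart, with scores of 40.2 and 38.2 on the first principal component against -24.8 to -3.10 on the other 6. The mean level of 10 spermatid genes (17 probe sets) was 10.76 and 10.19 on these arrays and 8.15 to 8.94 on the others, and all 17 probe sets were higher on both than on any other array. Among 6 fat genes, 9 of 10 probe sets did the same. Of all probe sets, 8.6% were higher on both than on any other array. The spermatocyte genes, which mark the meiotic cells of the testis, had mean levels of 11.83 and 11.77 on these arrays and 11.58 to 11.75 on the others. Sertoli means were 7.39 and 7.44 against 7.46 to 7.71, and peritubular means 7.29 and 7.33 against 7.40 to 7.58. Spermatogonia means were 7.749 and 7.767 against 7.771 to 7.943. Leydig means, at 7.96 and 7.71, lay within those of the others, 7.64 to 8.16. Differences of the members are given with and without wildtype replicate 7 and mutant replicate 8.

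In the complex, PRPF19 is the ubiquitin ligase that gives it its name and forms the scaffold. CDC5L, PLRG1 and BCAS2 complete the core, and CTNNBL1 binds CDC5L. CRNKL1 and XAB2 are long repeat proteins that join the active spliceosome with the complex, and XAB2 also takes part in DNA repair coupled to transcription. In the mouse testis, BCAS2 is known to be needed in spermatogonia for correct splicing and for entry into meiosis. The complex also senses damaged DNA, by ubiquitylation around the single-strand binding protein RPA.

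Promoter windows of all 7 genes were found in RefSeq (GRCm38.p6), each running from 250 bases before the annotated start of transcription to 50 after it. There were 8 windows, since Prpf19 had a pair. The bases upstream of Bcas2, the gene with the largest difference, lie at chr3:103171405-103171654 on the plus strand and end at the base before the start. An E-box, CACGTG, stands in capitals, beginning 55 bases before the start.
Bcas2 upstream: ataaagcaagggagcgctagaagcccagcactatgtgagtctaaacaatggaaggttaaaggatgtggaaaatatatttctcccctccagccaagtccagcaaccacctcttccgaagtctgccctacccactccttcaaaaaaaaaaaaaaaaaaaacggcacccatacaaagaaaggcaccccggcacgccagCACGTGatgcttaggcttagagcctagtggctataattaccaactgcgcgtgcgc

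The cAMP response element, TGACGTCA, which reads the same on both strands, was found in 3 of the 8 windows, those of Bcas2, Xab2 and Cdc5l. They are shown, with the element in capitals, because it is a sequence these members share that their choice did not use. It lies on the plus strand of chr3:103171675-103171704 for Bcas2, on the minus strand of chr8:3621447-3621476 for Xab2 and on the minus strand of chr17:45433783-45433812 for Cdc5l. It began at base 33 after the start in Bcas2, 169 bases before it in Xab2 and 94 bases before it in Cdc5l.
Bcas2: cagcggcgtgtgTGACGTCAttccaggcgc
Xab2: acccgggtctgTGACGTCAtcttccggcgc
Cdc5l: tgccctccgcgTGACGTCAggaccaatccc

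Of all 32851 promoter windows of the same length, 1.79% held the element and 7.15% held the E-box, which among the members was found in the window of Bcas2. The run AGGGGGC from the centre of the CTCF motif, searched on both strands, was in 0 of the 8 windows and in 10.6% of all. The element and the E-box were picked after the sequences had been read, and a match is a description of the letters. These arrays hold no measurement of binding at any of the windows.

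Bcas2, the small coiled-coil subunit of the core, had 3 probe sets, and their mean levels were all lower in mutant testis. The gene had been chosen on probe set 1437262_x_at. There the wildtype levels were 6.50, 6.31, 6.66, 6.17 and 7.10 in replicates 1, 2, 4, 6 and 7, and the mutant levels were 6.09, 5.90 and 6.08 in replicates 3, 5 and 8. All 3 mutant arrays were below all 5 wildtype arrays, by 0.077 between the nearest of each, and wildtype replicate 7 was the highest. The means were 6.55 ± 0.36 (SD, n = 5) and 6.03 ± 0.11 (SD, n = 3), a difference of -0.52 (SE 0.18), which puts the mutant mean at 0.698 of the wildtype.

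The 2 other probe sets of Bcas2 lay outside the size by which the gene was chosen. Probe set 1418234_s_at had the highest levels of the 3. Its wildtype levels were 10.92, 11.004, 10.92, 10.82 and 11.02 and its mutant levels 10.67, 10.78 and 10.87, in the same order of replicates. The groups overlapped here, because mutant replicate 8 was above wildtype replicate 6. The means were 10.94 ± 0.080 (SD, n = 5) and 10.78 ± 0.099 (SD, n = 3), with a difference of -0.16 (SE 0.074). On probe set 1458219_at the wildtype levels were 3.57, 3.62, 3.92, 3.67 and 3.41 and the mutant levels 3.47, 3.49 and 3.50. Wildtype replicate 7, the highest array on the other pair of probe sets, was the lowest on this one. The difference was -0.15 (SE 0.10), and only 3.57% of all probe sets had a lower mean level than this one.

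**Figure D1:**
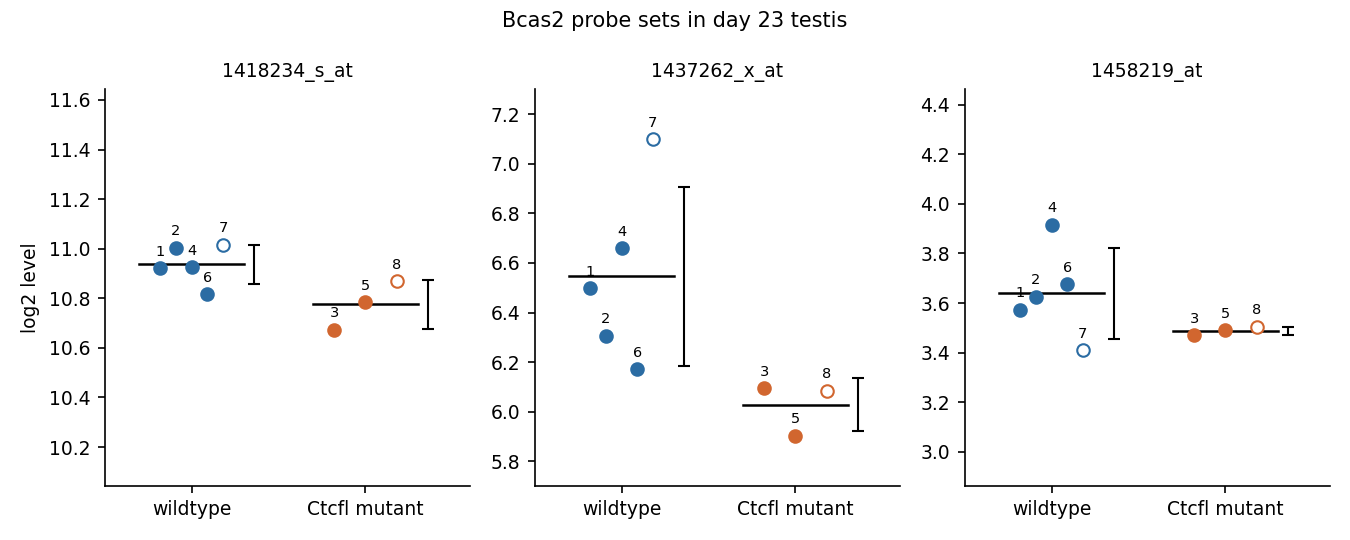
The log2 level of each Bcas2 probe set on each array, with numbers giving the replicate, wildtype in blue and Ctcfl mutant in orange. Lines are group means, bars 1 SD, open circles the arrays that stood apart, and each panel spans the same height. The groups are separate on 1437262_x_at and overlap on the other panels.

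The probe sets of Bcas2 thus gave differences of unequal size. The suffix _x_ marks probes that may also bind unrelated transcripts, and _s_ marks probes shared by several transcripts. Of the 16 member probe sets, 6 carried such a suffix. The spread within groups of 1437262_x_at was 0.301 (pooled SD), larger than that of 94.9% of all probe sets, while that of 1418234_s_at was 0.087, larger than that of 20.6%. Without wildtype replicate 7 the difference on 1437262_x_at was -0.38. Without both arrays that stood apart it was -0.41, and on 1418234_s_at and 1458219_at it was then -0.19 and -0.22. Between mutant replicate 8 and wildtype replicate 7 alone, both rich in spermatid transcripts, 1437262_x_at differed by -1.01, 1418234_s_at by -0.15 and 1458219_at by 0.094, the last with the higher level in mutant. Some cell type lists had means on one side in most of their probe sets, which is given as a description. All 17 spermatid probe sets had a lower mean in mutant (median -0.21), with list means per array of 8.26 to 10.76 in wildtype and 8.15 to 10.19 in mutant, which overlap. Of the fat probe sets, 9 of 10 were lower (median -0.098). All 11 Sertoli probe sets (median 0.097) and 8 of 9 Leydig probe sets (median 0.15) had a higher one. The spermatocyte, spermatogonia and peritubular lists were mixed, with 6 of 10, 5 of 14 and 3 of 7 probe sets lower. The part of cell makeup in the Bcas2 difference was not tested. Whether other transcripts contributed to the signal of 1437262_x_at was not tested.

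The whole-table comparison was the background for the members. In the limma fit, 0 of 45101 (0%) had an adjusted p under 0.05 and 1564 (3.47%) an unadjusted p under 0.05. All mutant values were below all wildtype values for 1.31% of probe sets and above them for 1.38%. Of the 16 member probe sets, 1 did not overlap, lower in mutant, and it was the Bcas2 probe set by which the gene was chosen. None was wholly above. Of the 13 probe sets of the other 6 genes, 0 passed the limma adjusted p, 0 had an unadjusted p under 0.05, and each overlapped between the groups. Their adjusted p was 1.0 throughout.

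The scaffold gene Prpf19 had 4 probe sets, with differences of -0.15, -0.051, -0.058 and -0.065. On 1449635_at the wildtype levels were 10.78, 10.74, 10.70, 10.72 and 10.38, and the mutant levels were 10.74, 10.66 and 10.41. The lowest array of each group was the one that stood apart, and the rest of both groups lay together. The means were 10.67 ± 0.16 (SD, n = 5) and 10.61 ± 0.17 (SD, n = 3), with a difference of -0.058 (95% interval -0.30 to 0.19). Probe set 1419839_x_at had the same shape, at 10.52 and 10.54 on wildtype replicate 7 and mutant replicate 8 and at 10.86 to 10.97 on the others.

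On 1460633_at these arrays were again the lowest of the 8, at 8.23 and 8.19, while the wildtype means and mutant means were 8.48 ± 0.20 (SD, n = 5) and 8.42 ± 0.20 (SD, n = 3). Probe set 1456531_x_at read 11.23, 11.31, 11.16, 10.99 and 11.04 in wildtype and 11.16, 11.13 and 10.70 in mutant. Mutant replicate 8 was the lowest there too, but wildtype replicate 6 was below wildtype replicate 7. Without both arrays the 4 differences of Prpf19 were -0.027, -0.0099, -0.032 and -0.013, each nearer to 0 than with all 8 arrays. Without mutant replicate 8 alone they were 0.00078, 0.070, 0.040 and 0.049, a fit that keeps wildtype replicate 7 in its group. In a fit with a block for the arrays that stood apart they were -0.11, -0.000081, -0.015 and -0.022. On 3 of its 4 probe sets, Prpf19 was thus lowest on both of the arrays where the spermatid and fat lists were high. The means of the Sertoli, peritubular and spermatogonia lists were also lowest on those arrays. The part of cell makeup in the level of Prpf19 was not tested.

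**Figure D2:**
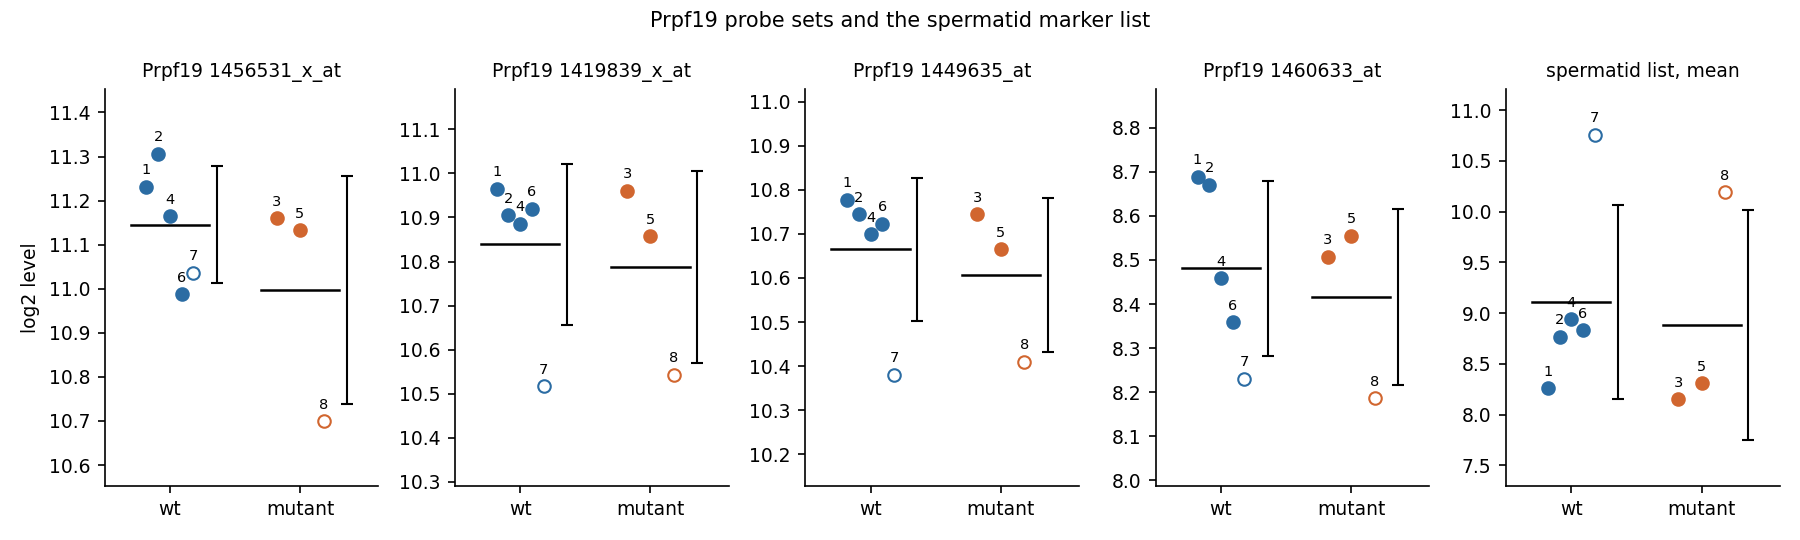
The log2 level of the 4 Prpf19 probe sets and the mean log2 level of the spermatid list on each array (wt, wildtype in blue, Ctcfl mutant in orange, numbers giving the replicate). Lines are group means and bars 1 SD. The open circles, wildtype replicate 7 and mutant replicate 8, are low for Prpf19 on 3 probe sets and high for the spermatid list.

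Cdc5l, a core protein with Myb-like repeats, had 2 probe sets. On 1460429_at the wildtype levels were 11.02, 11.06, 10.93, 11.002 and 10.94, and the mutant levels 11.04, 10.98 and 10.97. The groups lay within each other, with a difference of 0.0061 (95% interval -0.13 to 0.14). The second, 1428092_at, differed by 0.052 (95% interval -0.17 to 0.27), and its lowest arrays, at 9.38 each, were wildtype replicate 7 and mutant replicate 8. Its difference was 0.12 without both, 0.16 without mutant replicate 8 alone and -0.034 without mutant replicate 5, whereas that of 1460429_at was 0.0091 without both. The deposited annotation ties 1428092_at to 7 Ensembl genes and every other member probe set to 1, so its level may include related transcripts. Over the members, 4 of 16 probe sets were lower on both of the arrays that stood apart than on the other 6, namely 3 of Prpf19 and 1 of Cdc5l. Over all probe sets the share was 10.3%. Among the other splicing and repair genes described below, 27 of 178 probe sets did the same. By list this ran from 0 of 6 for the DEAH-box helicases and 0 of 8 for the Sm core to 6 of 19 for the U5 snRNP.

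Plrg1, the WD-repeat protein of the core, had 1 probe set. Its wildtype levels were 10.51, 10.47, 10.36, 10.37 and 10.20, and its mutant levels were 10.37, 10.51 and 10.41. The mutant values fell inside the wildtype range, with a difference of 0.048 (95% interval -0.13 to 0.23). Ctnnbl1, an armadillo-type protein, also had 1 probe set, with levels of 11.26, 11.19, 11.18, 11.20 and 11.14 in wildtype and of 11.23, 11.20 and 11.19 in mutant. It was among the steadiest on the arrays, since only 0.949% of all probe sets had a smaller spread within groups. Its difference was 0.012 (95% interval -0.12 to 0.14). Without the arrays that stood apart the differences of Plrg1 and Ctnnbl1 were 0.013 and 0.0071.

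Crnkl1, one of the repeat proteins, differed by 0.019 (95% interval -0.16 to 0.20) on 1420850_at, where levels ran from 9.58 to 9.82 in wildtype and from 9.59 to 9.80 in mutant. Its dimmer probe set, 1420849_at, differed by -0.033 (95% interval -0.21 to 0.15). Xab2, the other repeat protein, differed by -0.061, -0.081 and -0.11 on its 3 probe sets, with 95% intervals that all included 0. The widest of these, for 1436886_x_at, ran from -0.30 to 0.072. The 3 probe sets of Xab2 ranked the arrays alike at both ends. Wildtype replicate 1 was the highest and mutant replicate 5 the lowest on each. Without mutant replicate 5 the differences of Xab2 were 0.0026, -0.038 and -0.035, each nearer to 0 than with all arrays. Without both arrays that stood apart they were -0.096, -0.10 and -0.16, and those of Crnkl1 were 0.084 and -0.058.

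**Figure D3:**
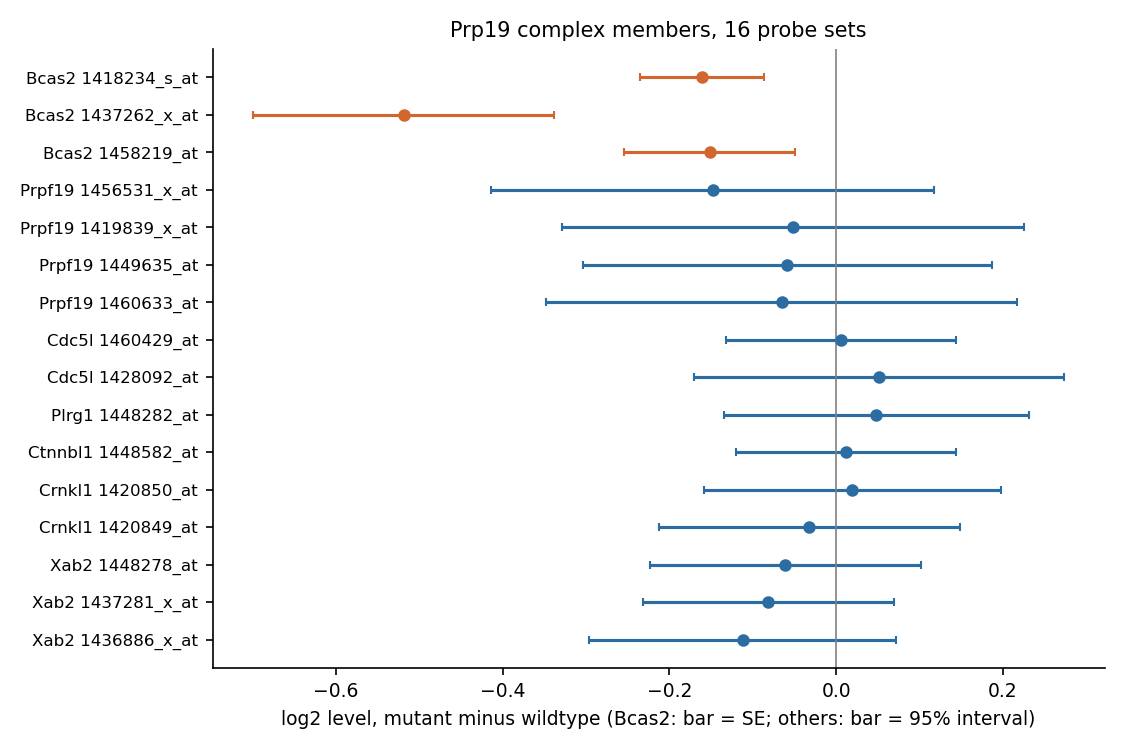
Mutant minus wildtype difference in log2 level for the 16 member probe sets. Bars are 1 SE for Bcas2 (orange), which was chosen on this contrast, and 95% intervals from limma for the other genes (blue), all of which cross 0.

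Over the 16 member probe sets, 11 (68.8%) had a lower mean in mutant testis and 5 a higher one, with a median difference of -0.060. Without Bcas2 these counts were 8 and 5, with a median of -0.051. Over all probe sets 48.5% were lower and the median was 0.0032. Without mutant replicate 8 the median of the members was 0.011, and with the main probe set of each gene alone it was 0.0061. Several probe sets are aimed at the same gene, so the 16 values are not separate results. Such probe sets did not always move together. Their Pearson correlations over the 8 arrays were 0.90 to 0.97 for Xab2, 0.10 to 0.72 for Bcas2 and -0.20 for Crnkl1. For Prpf19 and Cdc5l they were 0.71 to 0.996 and 0.59. Over the 6 arrays that lay together they were 0.92 to 0.98 for Xab2, 0.54 to 0.77 for Bcas2 and -0.34 for Crnkl1. There Prpf19 had 0.12 to 0.90 and Cdc5l 0.38. For the genes other than Bcas2, the lowest bound of any 95% interval was -0.41, for Prpf19 on 1456531_x_at, and the highest was 0.27, for Cdc5l on 1428092_at.

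Other genes of the splicing machinery were taken from 9 lists covering the proteins that work with the Prp19 complex, the spliceosomal helicases, the small nuclear ribonucleoproteins, the exon junction complex and the partners of PRPF19 in DNA repair. Of their 84 genes, 79 were measured, by 178 probe sets. With limma 0 of the 178 passed an adjusted p of 0.05. There were 4 (2.25%) with an unadjusted p under 0.05, against 3.47% of all probe sets. The median difference was 0.0018, and 48.9% were lower in mutant. By list, the median ran from -0.034 for the Sm core, the ring of proteins around each spliceosomal RNA, to 0.045 for the helicases of the DEAH-box family. The proteins that work with the Prp19 complex had 43 probe sets, 17 lower and 26 higher, with a median of 0.021.

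The first pair of genes in each list, taken in the order written, gave 18 main probe sets. Their differences lay between -0.15 for Snrpd1, an Sm protein, and 0.17 for Snrnp70, a protein of the U1 particle. Prpf8, the large protein at the heart of the spliceosome, differed by -0.022 (95% interval -0.18 to 0.13) and the U5 helicase Snrnp200 by -0.062 (95% interval -0.22 to 0.099). Isy1 and Syf2, which travel with the Prp19 complex, differed by -0.011 (95% interval -0.14 to 0.12) and 0.044 (95% interval -0.097 to 0.19). Rpa1, the large subunit of RPA, differed by 0.059 (95% interval -0.11 to 0.23). All of these had a limma adjusted p of 1.0.

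The 4 probe sets with an unadjusted p under 0.05 were named after their values had been seen. They belong to Sf3b1, Lsm6, Snrpf and Trp53, and all had a limma adjusted p of 1.0. Sf3b1, which holds the branch point, differed by -0.24 (SE 0.095) on 1440818_s_at, and its 3 other probe sets lay between -0.032 and 0.00093. Lsm6, part of the ring on U6 RNA, differed by -0.24 (SE 0.092) on 1 of 3 probe sets. Snrpf, an Sm protein, had 1 probe set, whose mutant levels of 9.78 on each array were below the wildtype levels of 9.86 to 10.03. Trp53, which encodes p53, a protein that BCAS2 is known to bind, was higher in mutant on 1427739_a_at, at 8.19 to 8.29 against 7.91 to 8.13. Of its 7 probe sets, 4 had a higher mean in mutant. The next brightest, 1426538_a_at, differed by 0.18 (95% interval -0.069 to 0.43), and its groups overlapped. The remaining probe sets were dim, with wildtype means of 3.39 to 4.88 and differences of -0.067 to 0.13.

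**Figure D4:**
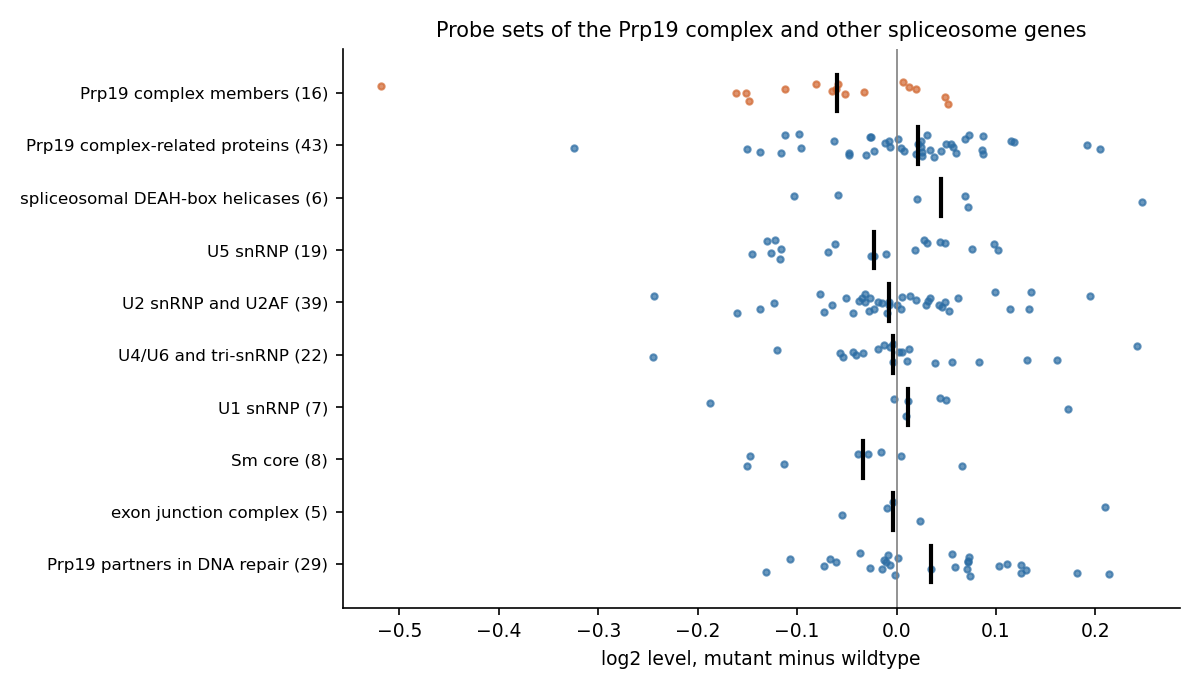
Mutant minus wildtype difference in log2 level for every probe set (points) of the Prp19 complex members (orange) and of the 9 other lists (blue), with the number of probe sets in brackets and the median as a black line. The medians of the 9 lists lie between -0.034 and 0.045, and the point farthest left is Bcas2 on 1437262_x_at.

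The genes whose levels across the arrays were most like those of Bcas2 were sought among 1854 main probe sets above the median level with an SD over arrays of at least 0.2. With 1437262_x_at the highest Pearson correlations over the 8 arrays were those of Iqub (0.963), C2cd6 (0.932), Psg23 (0.931), 4921527H02Rik (0.931) and Plpp5 (0.914). Over the 6 arrays that lay together they were 0.945, 0.825, 0.814, 0.809 and 0.929. With 1418234_s_at the leading genes were E230008J23Rik (0.875), Lrif1 (0.862), Dop1b (0.859), Spag6 (0.850) and Zfp326 (0.841). The dim probe set 1458219_at, the one that the rule for main probe sets takes, gave Layn (0.879), Kif3c (0.839), Elfn2 (0.755), Fgd3 (0.754) and Cyp2b10 (0.746). The 3 sets had 0 genes in common, so the genes most like Bcas2 depended on the probe set that stood for it. These correlations rest on 8 arrays and were picked as the highest of many, so they are given without a test.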

How the data were processed

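Each array had, in the deposited table, a log2 level for every probe set, which the authors had made by RMA background correction and quantile normalisation, and which was used as deposited. Levels ran from 2.90 to 14.9, and array medians from 6.40 to 6.45. The authors' own group means, fold changes and p-values, in this table and in 2 further tables, were not used. Probe sets were named through their Entrez IDs in a RefSeq gene table (33637) or by the name in the file (3594). Those with several genes (1884) were not named.

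All 45101 probe sets were fitted on genotype alone in limma 3.58.1 under R 4.3.3 (lmFit, then eBayes), two-sided, with Benjamini-Hochberg adjustment. Intervals are 95% intervals of that fit. The procedure had been tested on simulated data, in which no array stood apart as 2 did here. The main probe set of a gene is one without a suffix where there is one, then the one with the highest mean. All member probe sets are named, together with the first pair of genes of each list. No pair of arrays was identical, and the number of arrays limits precision. The files used give no scan date. The members and lists were chosen with earlier results of these data known. Alternatives were leaving out arrays, a block for the arrays that stood apart, median centring, repeated quantile normalisation, array weights, a trend with a robust prior, a filter on level, and other probe sets. Python 3.11.15 with numpy 2.4.6, pandas 2.3.3 and matplotlib 3.10.9 did the rest.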

Additional observations from a re-analysis of the deposited data

Results flagged for a closer look

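Among the 16 member probe sets, the 5 wildtype levels were searched for one far from the rest, and 2 probe sets of Prpf19 had one, where chance gives about 1 in 20, or 0.8 here. Both were on wildtype replicate 7, which stood apart over the whole table, whereas that rate takes the 5 arrays as alike. The share flagged over all probe sets was not counted, so the count is no result about Prpf19. The level was 10.52 on 1419839_x_at, against 10.89 on the nearest other wildtype array, and 10.38 on 1449635_at, against 10.70. These probe sets measure the same gene and are not separate findings. With 3 arrays the mutant group was too small to be searched.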

How the results depend on the processing

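No paired analysis was possible because no replicate number occurs in both genotypes. The count of 0 probe sets past a limma adjusted p of 0.05 became 1, not a member, with a block for the arrays that stood apart, and stayed 0 when any 1 array was left out. At an unadjusted p under 0.05 the count of 1564 became 2644 with that block, 2956 without both arrays and 707 above the median level, where fewer were tested. Leaving out 1 array gave 1220 to 2649, the highest without mutant replicate 8. No probe set of the 6 members other than Bcas2 passed in any of the 16 fits. Their lowest limma adjusted p was 0.814, for Xab2 on 1436886_x_at. By the rule for main probe sets Bcas2 is read from 1458219_at, at -0.15, which became -0.52 on 1437262_x_at and lay between -0.21 and -0.083 when 1 array was left out. On 1437262_x_at it lay between -0.61 and -0.38 and on 1418234_s_at between -0.21 and -0.11. Since the groups do not overlap on 1437262_x_at, by which the gene was chosen, leaving out an array could not turn its sign there. The differences of Prpf19 were 0.00078 to 0.070 without mutant replicate 8 and negative in the other fits. The median of the members lay between -0.10 and 0.011 and that of the other lists between -0.014 and 0.015.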
